A study of Mus musculus with 7 samples.

Results

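The genes described are 9 members of the retinoic acid pathway, chosen by name: Stra6, Dhrs3, Aldh1a1, Aldh1a2, Aldh1a3, Crabp1, Crabp2, Rarb and Cyp26b1. They are 9 of 34792 gene names on the array, and they are read by 11 of its probes, 3 of them for Rarb and 1 for each other gene. Transcript levels were measured with single-colour Agilent 8x60K mouse arrays on 7 RNA samples. Postmortem cardiac mesenchymal progenitors (CMPs) were cells of adult C57BL/6 mouse heart tissue kept for 24 h at 4 °C after death, 1 array of atrial and 1 of ventricular origin. Living CMPs came from cardiac tissue of living animals of the same strain background, again 1 atrial and 1 ventricular array. All CMPs grew on collagen I in DMEM/F12 with fetal bovine serum (10%) and basic fibroblast growth factor (40 ng/ml). Adult heart was purchased total RNA (1 array) whose strain, age and number of animals are not given in the sources used here. Fetal heart was C57BL/6 tissue of embryonic day 16.5, 1 array of the Tg(Myh6-EGFP)MG2 line, in which a cardiomyocyte promoter drives a green fluorescent protein, and 1 array of wild type. The hearts were the study's positive controls. They are whole tissue, so fewer cells of a type and less RNA per cell cannot be told apart in them.

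Retinoic acid is the active form of vitamin A. Retinol is carried in blood by a binding protein, taken up through the membrane receptor STRA6, oxidised reversibly to retinal and then irreversibly to retinoic acid by the retinaldehyde dehydrogenases ALDH1A1, ALDH1A2 and ALDH1A3. DHRS3 turns retinal back into retinol, CRABP1 and CRABP2 bind retinoic acid in the cytoplasm, the nuclear receptors RARA, RARB and RARG act on target genes when bound to it, and CYP26 enzymes degrade it. In the developing mouse heart, Aldh1a2 is the main source of retinoic acid and is known from the epicardium, the outer cell layer of the heart. Rarb and Dhrs3 are themselves known targets that retinoic acid switches on.

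The Rarb promoter is shown because it holds the textbook example of a retinoic acid response element, and Rarb was lower in CMPs than in either heart. The 250 bases before the annotated start (RefSeq, GRCm38.p6, minus strand, chr14:16575477-16575726) read, 5′ to 3′, with the element in capitals:
Rarb promoter: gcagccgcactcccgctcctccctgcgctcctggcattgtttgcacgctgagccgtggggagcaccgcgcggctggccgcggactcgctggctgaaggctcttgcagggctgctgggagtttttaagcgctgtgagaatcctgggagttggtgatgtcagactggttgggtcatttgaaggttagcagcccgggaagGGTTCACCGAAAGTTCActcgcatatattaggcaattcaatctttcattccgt
The element is a direct repeat of a 6-base unit with 5 bases between the copies (DR5), and its first base lies at position -53 from the start. The repeat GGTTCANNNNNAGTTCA was searched on both strands of 32851 RefSeq windows from 250 bases before to 50 bases after a start. It was found in 2 of them, 0.00609%. The looser DR5 motif, whose units may start with A or G and have G or T in the third place, and which contains that repeat, was found in 32 windows, 0.0974%. Windows were at hand for 7 of the 9 genes, 13 windows in all, and Rarb alone among those genes had a DR5 in them.

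Levels are log2 of the processed signal relative to the 75th percentile of the same array, so 0 is the level of that percentile. A level of one gene cannot be set against that of another, since each is read by its own probe. Every p-value below is from limma, adjusted (Benjamini-Hochberg) over all genes tested in that comparison, and a gene was called at an adjusted p under 0.05. Differences are given on the log2 scale with the standard error of the fit. Nothing in the labels says that arrays of a group are separate cultures or animals, so the spread behind a p-value is that of these samples and may be technical. The 4 CMP arrays lay in row 1 of the slide and the 3 heart arrays in row 2, so slide position and the difference between CMPs and hearts cannot be told apart.

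The share of probes well above background was 46.5% to 52.5%. All 8 fibroblast markers were well above background on all 7 arrays, and 1 to 4 of 9 cardiomyocyte markers were on the CMP arrays, against 9 of 9 on each heart array. Among CMPs the atrial postmortem array was the odd one: 4685 to 5297 of 24887 genes lay 2-fold or more from each other CMP array, against 2402 to 2719 between the other 3. The wild-type fetal array carried markers of other organs that the Myh6-EGFP fetal array did not, in lists drawn up after the values were seen. None of 9 lung epithelium markers was well above background on the Myh6-EGFP array and 7 of 9 were on the wild-type array, and Sftpc, surfactant protein C, was at -5.89 on the Myh6-EGFP array and at 3.30 on the wild-type array. For liver the counts were 3 and 9 of 9, with summed levels of 4.75 on the Myh6-EGFP array and 38.5 on the wild-type array in units of the 75th percentile, and for skeletal muscle regulators 2 and 5 of 6. Differences of the 9 genes from fetal heart are therefore also given without the wild-type array.

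**Figure D1:**
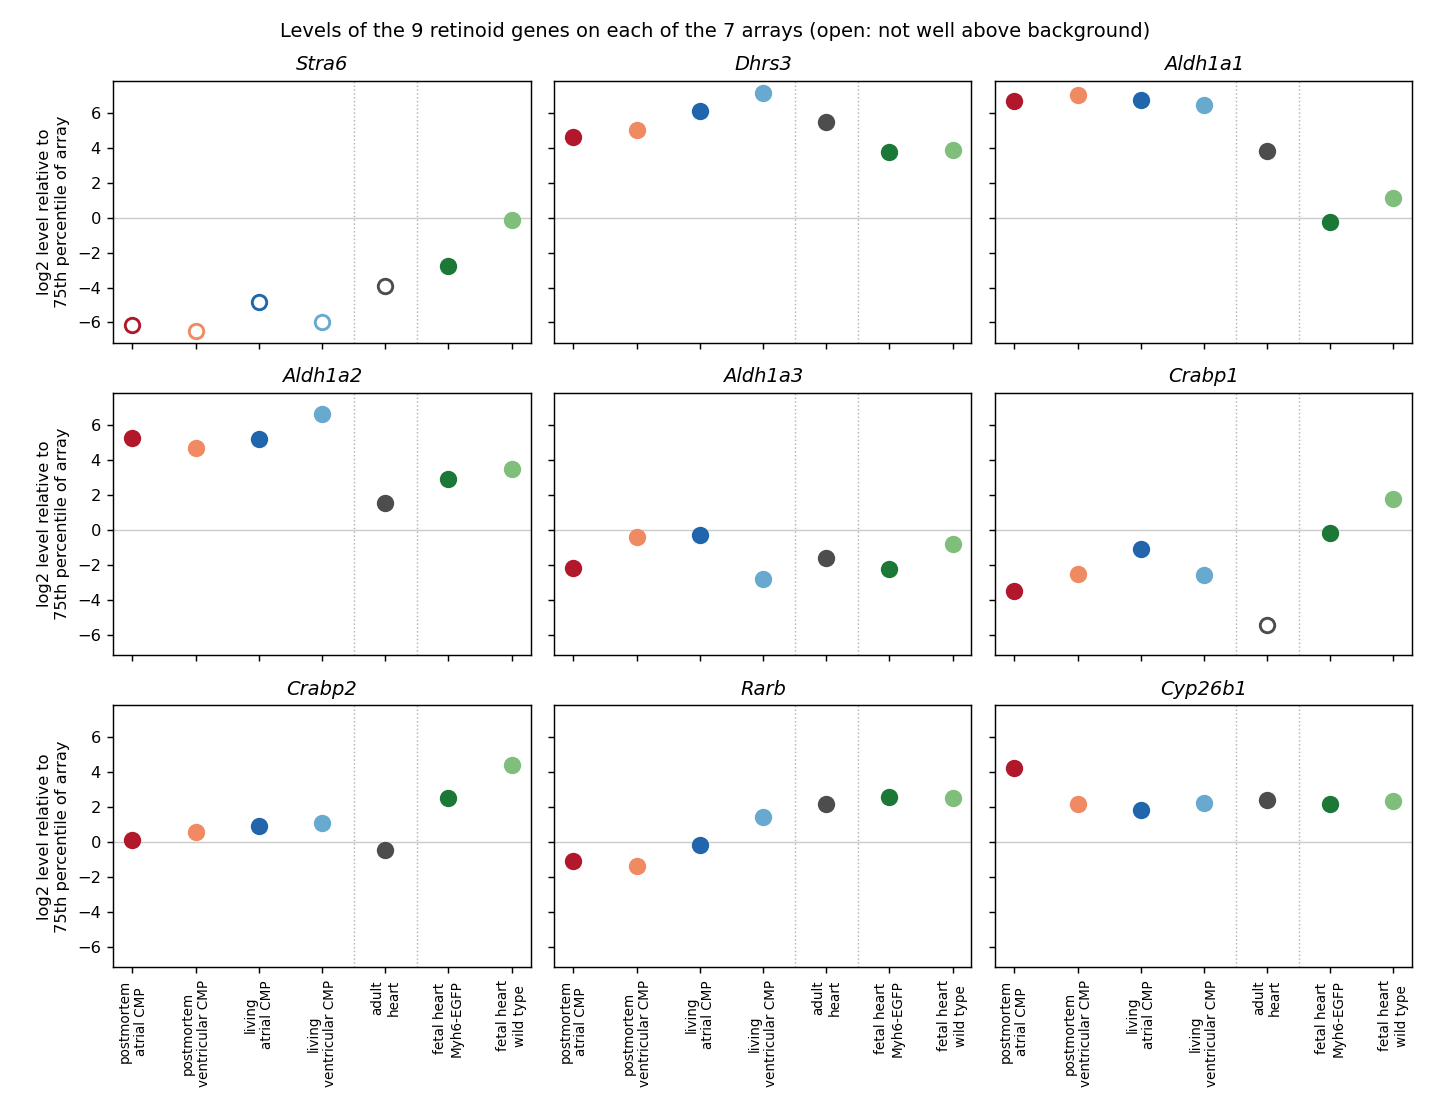
Level of each retinoid gene (y axis, log2 relative to the 75th percentile of the array) on each of the 7 arrays (x axis), 1 point an array, open where the probe was not well above background. Aldh1a1 lay between 6.48 and 7.03 on the 4 CMP arrays, above all 3 hearts, while Crabp2 and Rarb were higher on both fetal arrays than on any CMP array.

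CMPs were first set against fetal heart. Of the 9 genes, 7 were called, 3 higher and 4 lower in CMPs, where 49.6% of 20052 genes tested were called, 23.6% higher and 26% lower. Aldh1a1 and Aldh1a2, which make retinoic acid, and Dhrs3, which lowers its precursor, were higher in CMPs. The uptake receptor Stra6, the binding proteins Crabp1 and Crabp2 and the receptor Rarb were lower. Aldh1a3 and the degrading enzyme Cyp26b1 did not pass the test. For these 7 genes the CMP and fetal arrays did not overlap, which held for 61.7% of all genes tested, 30.1% higher and 31.6% lower. The differences of these 7 genes kept their direction when any 1 array was left out. Under quantile normalization 3 of the 7, Aldh1a1, Dhrs3 and Rarb, were called. Fibroblast markers moved with the 3 higher genes against fetal heart, where 7 of 8 were called higher in CMPs (median difference 1.90). Against adult heart 6 of 8 were called higher (median 2.86), as were Aldh1a1 and Aldh1a2, while Dhrs3 differed by 0.21 and was not called. The summed level of these markers was 1600 to 2110 in CMPs, 591 in adult heart and 431 and 588 in Myh6-EGFP and wild-type fetal heart, in units of the 75th percentile. Their part in the result was not tested.

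Aldh1a1 (probe on chromosome 19, positions 20717764 to 20717823, mm9 here and below) was at 6.69 and 7.03 in postmortem atrial and ventricular CMPs and at 6.76 and 6.48 in living atrial and ventricular CMPs. It was at 3.82 in adult heart and at -0.23 and 1.11 in Myh6-EGFP and wild-type fetal heart. All 4 CMP arrays were above every heart array. The difference was 6.30 ± 0.35 against fetal heart (adjusted p = 1.16e-05, 78.7-fold) and 2.92 ± 0.45 against adult heart (adjusted p = 0.00139, 7.59-fold). Without the wild-type fetal array the difference from fetal heart was 6.97. The probe of Aldh1a7, a close mouse relative named after its values were seen, shared at most 8 bases in a row with the Aldh1a1 probe. It was at 0.31 to 2.56 in CMPs, -1.99 in adult heart and -1.54 and 3.42 in Myh6-EGFP and wild-type fetal heart. As for Aldh1a1, all CMP arrays lay above adult heart and the Myh6-EGFP array. Unlike for Aldh1a1, they lay below the wild-type fetal array.

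Aldh1a2 (chromosome 9, 71143931 to 71143990) was at 5.28 and 4.71 in postmortem atrial and ventricular CMPs and at 5.22 and 6.62 in the living ones. It was at 1.52 in adult heart and at 2.93 and 3.51 in Myh6-EGFP and wild-type fetal heart. The lowest CMP array was above the highest heart array. CMPs were higher than fetal heart by 2.24 ± 0.37 (adjusted p = 0.00173) and higher than adult heart by 3.93 ± 0.48 (adjusted p = 0.00044). Without the wild-type array the difference from fetal heart was 2.53. Under quantile normalization it was 2.16 and had an adjusted p = 0.0532. Epicardial and mesothelial markers stand for the known site of Aldh1a2 in the heart. Of the 12, 10 were called lower and 1 higher in CMPs than in fetal heart. The higher one, Tcf21, was at 0.81 to 3.84 in CMPs and at 0.62 and 1.34 in Myh6-EGFP and wild-type fetal heart. Against adult heart 6 of 11 tested were called lower and 2 higher. On the CMP arrays 4 to 8 of 12 were well above background, 11 in adult heart and 12 on both fetal arrays. Their mean level was -3.65 to -1.90 in CMPs, -0.40 in adult heart and 2.08 and 1.99 in Myh6-EGFP and wild-type fetal heart.

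Aldh1a3 (chromosome 7, 73535785 to 73535844) was well above background on all 7 arrays, at -2.82 to -0.31 in CMPs, against -1.62 in adult heart and -2.25 and -0.78 in Myh6-EGFP and wild-type fetal heart. Its groups overlapped, and the interval of the difference between CMPs and fetal heart ran from -1.80 to 1.97. The difference was 0.09, and 0.82 without the wild-type array. When 1 array was left out, it ran from -0.98 to 1.16, and the difference from adult heart from -0.88 to 1.26. The highest values came without the postmortem atrial or the living ventricular array.

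Dhrs3 (chromosome 4, 144517485 to 144517544) was at 4.65 and 5.01 in postmortem atrial and ventricular CMPs and at 6.10 and 7.15 in the living ones, against 5.51 in adult heart and 3.79 and 3.89 in Myh6-EGFP and wild-type fetal heart. CMPs were higher than fetal heart by 1.89 ± 0.19 (adjusted p = 0.000164), and by 1.94 without the wild-type array. Adult heart lay between the postmortem and the living arrays, and its difference from CMPs had an interval of -0.36 to 0.79.

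Stra6 (chromosome 9, 58001701 to 58001760) was dim, not well above background, on all CMP arrays and in adult heart, and it was at -2.79 and -0.12 in Myh6-EGFP and wild-type fetal heart. By group means it was at least 6.87-fold lower in CMPs than in fetal heart (adjusted p = 0.00239). The size rested on the wild-type array: without it the bound was 2.73-fold, and without the Myh6-EGFP array 17.3-fold.

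Crabp1 (chromosome 9, 54616192 to 54616251) was at -3.52 and -2.54 in postmortem atrial and ventricular CMPs and at -1.09 and -2.60 in the living ones. Adult heart was not well above background, and Myh6-EGFP and wild-type fetal heart were at -0.20 and 1.76. CMPs were lower than fetal heart by a difference of -3.22 ± 0.67 (adjusted p = 0.00547), and by -2.23 without the wild-type array. Against adult heart CMPs were at least 1.96-fold higher (adjusted p = 0.0219). That call was lost with normexp (0.51, adjusted p = 0.187), quantile normalization (adjusted p = 0.0887), no trend (adjusted p = 0.0798) and a robust prior (adjusted p = 0.064).

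Crabp2 (chromosome 3, 87757207 to 87757266), the member of the pair known for handing retinoic acid to the nuclear receptors, was at 0.14 and 0.58 in postmortem and at 0.92 and 1.10 in living CMPs, each atrial then ventricular. It was at -0.44 in adult heart and at 2.55 and 4.40 in Myh6-EGFP and wild-type fetal heart. Every CMP array was below both fetal arrays and above adult heart. The difference from fetal heart was -2.79 ± 0.45 (adjusted p = 0.00157), and -1.87 without the wild-type array. The difference from adult heart, 1.12 ± 0.58, did not pass (adjusted p = 0.145), though it was called with normexp (0.94, adjusted p = 0.00218). It was 1.06 to 1.19 in the 6 fits that left out 1 array. Their spread came from the fetal pair alone or from CMPs alone.

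Rarb was read by a main probe (chromosome 14, 17263367 to 17263426) and a dimmer one (17264648 to 17264707), both annotated to the same transcript, and by a probe for another transcript that was dim on all 7 arrays. The main probe was at -1.05 and -1.37 in postmortem atrial and ventricular CMPs and at -0.18 and 1.45 in the living ones. It was at 2.16 in adult heart and at 2.57 and 2.54 in Myh6-EGFP and wild-type fetal heart. The 3 hearts lay above all CMPs. CMPs were lower than fetal heart by a difference of -2.84 ± 0.36 (adjusted p = 0.000484) and lower than adult heart by -2.45 ± 0.46 (adjusted p = 0.00352). The dimmer probe, not well above background on either postmortem array, differed by -3.13 and -2.71 in the same comparisons. Without the wild-type fetal array the difference from fetal heart was -2.86. With quantile normalization the difference from adult heart had an adjusted p = 0.0521. Averaged over all 3 probes, the dim one included, the differences were -1.82 (adjusted p = 0.0151) from fetal heart and -1.86 (adjusted p = 0.0389) from adult heart.

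Cyp26b1 (chromosome 6, 84521952 to 84522011), the CYP26 enzyme of these 9 genes, was at 4.24 and 2.16 in postmortem CMPs and at 1.84 and 2.25 in living CMPs, atrial before ventricular. It was at 2.42 in adult heart and at 2.18 and 2.35 in Myh6-EGFP and wild-type fetal heart. Apart from the postmortem atrial array, all arrays lay between 1.84 and 2.42. Its difference from fetal heart was 0.36 with the postmortem atrial array (interval -0.63 to 1.34) and -0.26 without it. Without the wild-type fetal array it was 0.44. It was 0.98 without the postmortem ventricular array or without the living atrial array. In both of these fits the spread came from the fetal pair alone and not from CMPs.

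**Figure D2:**
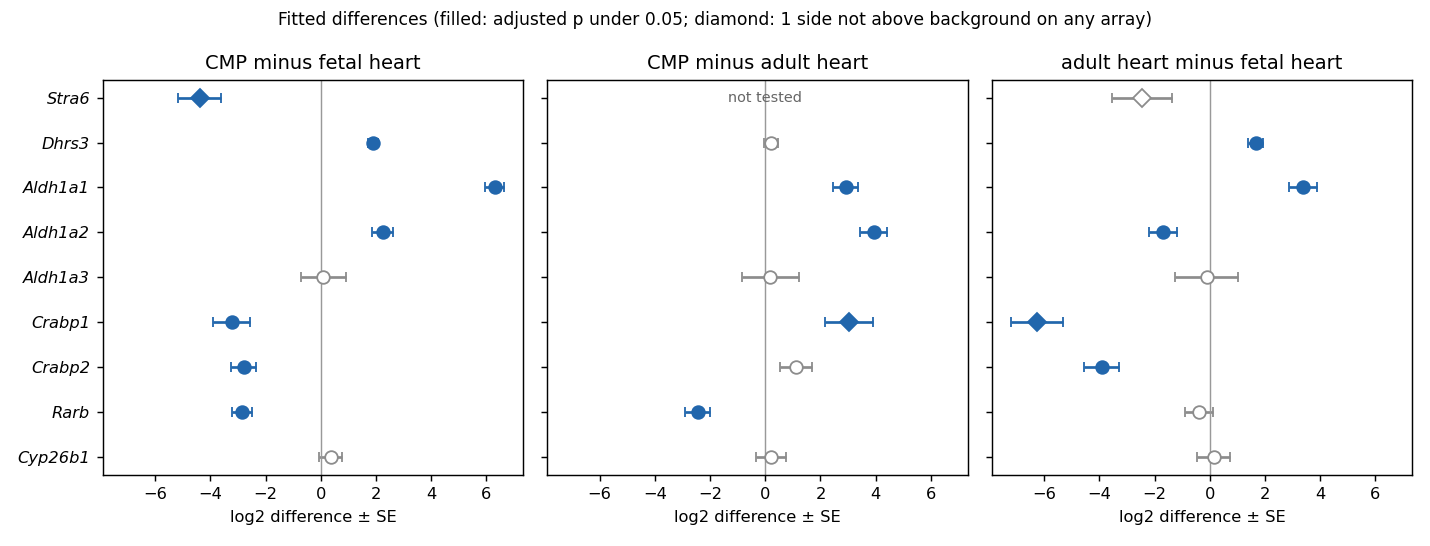
Fitted log2 differences (x axis, with the standard error of the fit as bars) of the retinoid genes (y axis) for CMPs against fetal heart, CMPs against adult heart and adult against fetal heart, filled where the adjusted p was under 0.05, with diamonds where 1 side was not well above background and the fitted value is no bound. Aldh1a1 was called in all 3 panels, and Rarb was lower in CMPs than in either heart, with -0.39 between the hearts.

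Against adult heart, 4 of 8 genes tested were called, Aldh1a1, Aldh1a2 and Crabp1 higher and Rarb lower in CMPs, where 50.7% of 20278 genes tested were called, 25.3% higher and 25.3% lower. Stra6 was not well above background on either side. The single adult array is assumed in the fit to vary like the other groups. These 2 comparisons use the same CMP arrays.

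Adult heart was then set against fetal heart. The adult RNA was purchased and its strain is not given, so age cannot be told apart from source, strain and preparation. Of the 9 genes, 5 were called, 2 higher and 3 lower in adult heart, where 39% of 20946 genes tested were called, 19.8% higher and 19.2% lower. Aldh1a1 was higher in adult heart by 3.37 ± 0.50 (adjusted p = 0.00191), or 4.05 without the wild-type fetal array. Dhrs3 was higher by 1.67 ± 0.27 (adjusted p = 0.00279), or 1.73 without that array. Crabp2 was lower by a difference of -3.91 ± 0.64 (adjusted p = 0.00291), or -2.99 without the wild-type fetal array. Crabp1 was at least 18.2-fold lower in adult heart (adjusted p = 0.00224), and at least 9.24-fold without the wild-type array. Aldh1a2 was lower by a difference of -1.69 ± 0.52 (adjusted p = 0.0365), or -1.40 without the wild-type array. The Aldh1a2 call is the weakest: it was lost with quantile normalization, with no filter, with no trend, with a robust prior and with both other choices of genes for the prior (adjusted p of 0.0575 to 0.17). Stra6, not well above background in adult heart, did not pass (adjusted p = 0.113), with a bound of at least 3.87-fold lower. It passed when any 1 CMP array was left out, in fits whose spread came from the fetal pair alone. Without the Myh6-EGFP array the bound was 9.76-fold. Without the wild-type array its fitted difference was -1.13 and the bound 1.54-fold. Rarb differed by -0.39 with an interval of -1.58 to 0.79 and Cyp26b1 by 0.15 with an interval of -1.24 to 1.55. Without the wild-type array these were -0.41 and 0.24, and Aldh1a3 differed by -0.10 with all arrays and by 0.63 without it.

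The fetal arrays also differed between themselves. Of the 9 genes, 5 were at least 2-fold lower on the Myh6-EGFP array than on the wild-type array and none was at least 2-fold higher, where 7.45% of 21857 genes were lower and 6.48% higher by that much, 13.9% in all. Stra6 differed by -2.67, Crabp1 by -1.96, Crabp2 by -1.85, Aldh1a3 by -1.46 and Aldh1a1 by -1.34. Dhrs3 (-0.11), Rarb (0.04) and Cyp26b1 (-0.17) were nearly level, and Aldh1a2 differed by -0.58. There is 1 array of each genotype and so no test. Of 47 genes of a wider retinoid list that were well above background on at least 1 fetal array, 11 were at least 2-fold lower on the Myh6-EGFP array and 2, Rbp7 and the lipase gene Lipe, at least 2-fold higher. Chosen after their values were seen, 3 of the 11 were as follows: the retinol dehydrogenase gene Adh1 was at -1.23 there and 3.68 in wild type, the retinol carrier Rbp4 at -1.07 and 2.15, and Hoxb5, a homeobox gene that responds to retinoic acid, at -3.42 and 2.29. The lung, liver and skeletal muscle markers given above differ between these arrays in the same direction, and their part in the result was not tested.

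**Figure D3:**
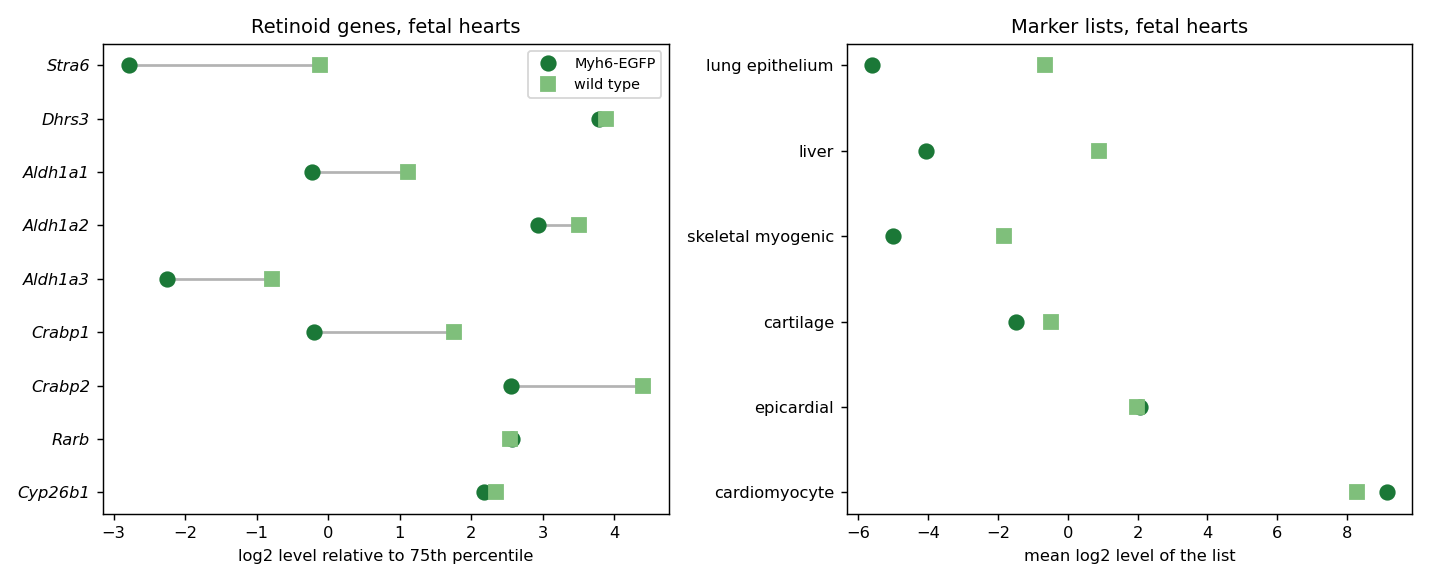
Left, log2 level of each retinoid gene (y axis) on the Myh6-EGFP and the wild-type fetal heart array, 1 point an array. Right, mean log2 level of 6 marker lists on the same arrays. Stra6, Crabp1, Crabp2, Aldh1a3 and Aldh1a1 are at least 2-fold lower on the Myh6-EGFP array, while epicardial markers have means of 2.08 on the Myh6-EGFP array and 1.99 on the wild-type array.

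The study's own question was how CMPs from stored hearts of dead animals compare with those from living animals. Dhrs3 was the 1 gene called of 8 tested, where 0.426% of 19013 genes tested were called, 0.142% higher and 0.284% lower. It was at 4.65 and 5.01 in postmortem CMPs and at 6.10 and 7.15 in living CMPs, atrial before ventricular. Both postmortem arrays were below both living arrays. The difference was -1.80 ± 0.22 (adjusted p = 0.0228, 3.47-fold), and it was -1.45 between the atrial and -2.14 between the ventricular arrays. The call depends on how the spread is estimated: the adjusted p was 0.102 with a prior from genes measured above background anywhere, 0.0892 with a prior from the genes tested, 0.327 without the chamber term, 0.465 with no trend and 0.508 with quantile normalization, where no gene of the whole array was called.

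Rarb, like Dhrs3 a known target of retinoic acid, was at -1.05 and -1.37 in postmortem CMPs and at -0.18 and 1.45 in living CMPs. The groups did not overlap, but the difference of -1.85 ± 0.41 did not pass (adjusted p = 0.136), nor did that over all 3 probes, -1.09 (adjusted p = 0.54). It was -0.87 between atrial and -2.82 between ventricular arrays, and the living ventricular array was the highest of the 4 (dependence on chamber -1.95). It passed with normexp (-1.55), in the 4 CMP arrays alone, without either fetal array, and without either the postmortem or the living atrial array. With normexp 1271 and in the CMP arrays alone 2075 of all 19013 genes were called, against 81 in the fit reported. With each probe as its own feature the main probe passed (adjusted p = 0.0315) and the dimmer one, also at -1.85, did not (adjusted p = 0.19). Crabp2 also had both postmortem arrays below both living arrays, by -0.77 between atrial and -0.52 between ventricular ones (-0.65 ± 0.52, adjusted p = 0.731). In all, 3 of 8 genes had postmortem arrays lying wholly below the living ones and none wholly above, where 20.1% of all genes tested lay wholly below and 23.9% wholly above, 44% in all.

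Aldh1a1 differed by 0.24 with an interval of -0.70 to 1.18, and Aldh1a2 by -0.93 with an interval of -1.92 to 0.06. Cyp26b1 differed by 1.16 ± 0.49 (adjusted p = 0.425). Both Aldh1a2 and Cyp26b1 were called with normexp, in the fit of the 4 CMP arrays alone and without either fetal array. Calls over all 19013 genes rose from 81 to 1271 with normexp and to 2075 in the CMP arrays alone. Crabp1 differed by -1.18 (adjusted p = 0.651) and Aldh1a3 by 0.28 (adjusted p = 0.972).

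Postmortem and living CMPs were next set against each other in atrial and in ventricular cells separately, with 1 array on each side. An interaction term has 1 residual degree of freedom, which comes from the fetal pair of 2 genotypes, so no spread among CMPs enters its p-values and they do not measure the dependence against that spread. It passed for 3 of 8 genes (1 positive, 2 negative), where 2.27% of 19013 genes were called, 1.54% positive and 0.726% negative. Aldh1a3 was lower in postmortem than in living atrial CMPs (-1.87) and higher in postmortem than in living ventricular CMPs (2.42), a dependence of 4.29. Cyp26b1 was higher in postmortem atrial CMPs by 2.40 and nearly level between ventricular ones (-0.09), a dependence of -2.48. Aldh1a2 was level between atrial arrays (0.06) and lower in postmortem ventricular CMPs by a difference of -1.91, a dependence of -1.97. None of the 3 passed with quantile normalization or with no trend. Markers of other cell types moved with this term: it passed for 4 of 6 endothelial markers, all positive (median of the 6, 4.00), for 2 of 4 epicardial and mesothelial markers tested and for 11 of 39 markers of all lists together. Their part in the result was not tested.

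**Figure D4:**
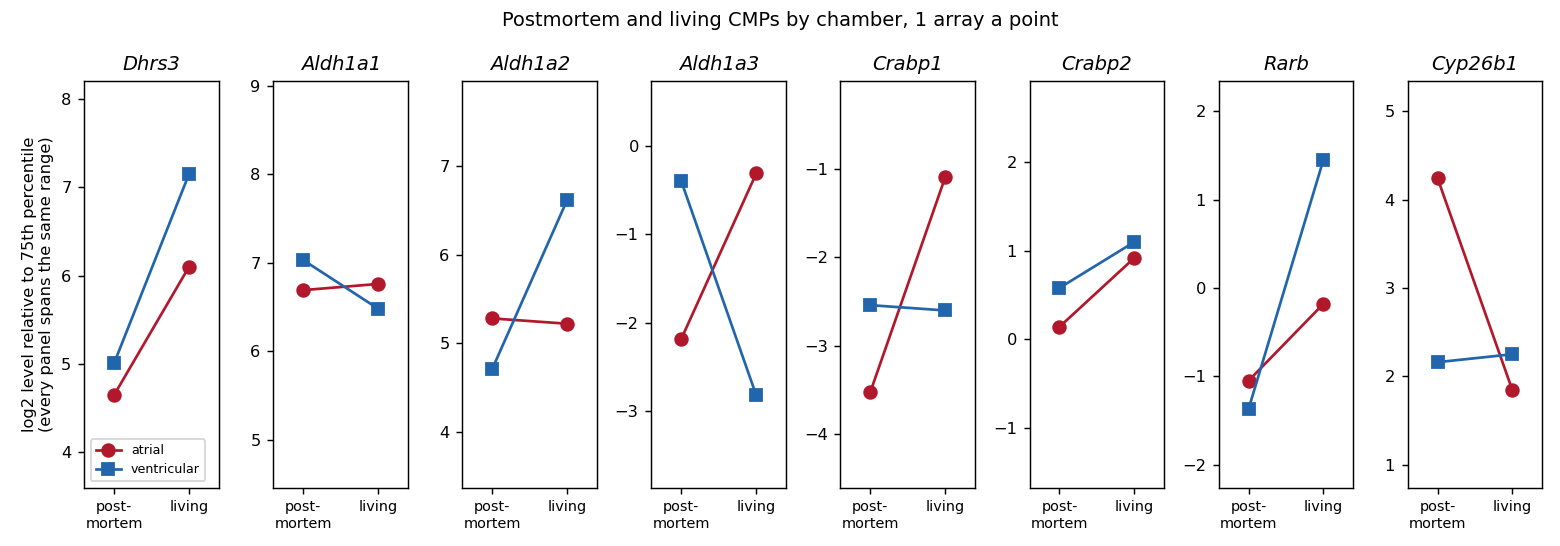
Log2 level (y axis, every panel spanning the same range) of the 8 retinoid genes measured in CMPs, postmortem on the left and living on the right, 1 point an array, with lines joining arrays of the same chamber. Dhrs3, Rarb and Crabp2 are lower in postmortem CMPs in both chambers, while the lines of Aldh1a3 cross.

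Ventricular and atrial CMPs were compared over both source states. By limma none of 8 genes was called, where 0.365% of 18912 genes tested were called (0.116% higher, 0.249% lower), and 1 of the 8, Dhrs3, had an unadjusted p under 0.05 (0.0141), with a difference of 0.70 ± 0.22. It was called with normexp (0.68) and in the fit of the 4 CMP arrays alone, as was Cyp26b1 (-0.81 with normexp). With normexp 1048 and in the CMP arrays alone 1592 of all 18912 genes were called, against 69 in the fit reported.

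The wider pathway was followed in a list of 66 names, 62 of them on the array. Against fetal heart 14 of 46 tested were called higher and 13 lower in CMPs, where 23.6% of all genes tested were higher and 26% lower, with a median of -0.12 against -0.01 for all genes. Without the wild-type array the counts were 13 and 16. Among the higher ones were Rarres1, a gene induced by retinoid drugs (4.15 ± 0.64), which was well above background on 1 of 2 fetal arrays, Rdh5, a retinol dehydrogenase (2.99 ± 0.25), and the receptor Rarg (2.40 ± 0.41). Among the lower ones were the retinol-binding protein Rbp7 (-5.72 ± 0.76), Hoxb5 (-5.22 ± 1.45) and Adh1 (-4.86 ± 1.16). These were well above background on 1, 1 and 2 of the 4 CMP arrays, so their fitted sizes rest in part on signals near background and have no order. Hoxb5 and Adh1 also rested on the wild-type array, with -2.37 and -2.41 without it. Among the 6 nuclear receptors of the list, 4 were higher and 1, Rara, lower in CMPs (-0.52 ± 0.16). The carrier genes Rbp4, Rbp7, Ttr and Fabp5 were called lower.

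Against adult heart 12 of 47 were called higher and 16 lower in CMPs, where 25.3% of all genes tested were called in each direction, with a median of -0.03 against 0 for all genes. Rarres1 (at least 20.7-fold, and at least 10.4-fold without the postmortem atrial array) was among the higher ones. Rbp7 (-9.65 ± 0.98), Adh1 (-6.01, interval -9.51 to -2.52) and Rbp4 (-5.29 ± 1.05) were among the lower ones, well above background on 1, 2 and 2 of the 4 CMP arrays, so these sizes too rest in part on signals near background. Between adult and fetal heart 14 of 47 were higher and 9 lower in adult heart, where 19.8% and 19.2% of all genes tested were, with a median of 0.22 against 0.09. Lipoprotein lipase, Lpl (5.79 ± 0.50), Rbp7 (3.92 ± 1.07) and Lrat, which esterifies retinol for storage (at least 4.29-fold), were among the higher ones. Meis2, a homeobox gene (-2.37 ± 0.33), was among the lower ones.

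Between postmortem and living CMPs limma called none of 41 tested, and 7 had an unadjusted p under 0.05, as had 2207 of all 19013 genes tested (11.6%). Of those 7 genes, 2 are named here after their values were seen. Rbp4 was not well above background on either postmortem array and was at -0.84 and -1.07 on the living atrial and ventricular arrays, a bound of at least 11.4-fold, lower in the postmortem cells (adjusted p = 0.108). Tgm2, a transglutaminase gene induced by retinoic acid, was at 3.65 and 2.28 in postmortem and at 5.30 and 5.04 in living CMPs, a difference of -2.20 ± 0.37 (adjusted p = 0.0672). Between chambers limma called none of 42 tested, and 5 had an unadjusted p under 0.05, as had 1748 of all 18912 (9.24%). The interaction term, with the limit given above, passed for 2 of 41, Tbx5 (3.20), a cardiac transcription factor, and Nr2f1 (-1.85), an orphan nuclear receptor.

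The gene whose pattern over the 7 arrays was nearest to each of the 9 was sought among 24886 candidates, by the root mean square difference after each gene's mean was taken off. For Aldh1a1 it was Prelp, a matrix proteoglycan (0.38), for Aldh1a2 Artn, a neurotrophic ligand (0.28), for Stra6 Gli2, a Hedgehog transcription factor (0.43), for Crabp1 Gdf5, a ligand known from joints (0.59), and for Crabp2 Palm3 (0.39). These distances over 7 arrays are a description only.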

How the data were processed

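Total RNA of 7 samples was hybridised to single-colour (Cy3) Agilent arrays. The authors deposited scanner intensity per spot, made with Agilent Feature Extraction 10.7.3.1 per the file headers (9.5.3 per the submitters' processing notes), background-subtracted and detrended but not normalized between arrays. They also deposited a log2 table of processed values, used as an alternative. Here log2 of the processed intensity minus the 75th percentile of each array was taken, control spots and outlier-flagged spots were left out, and 55670 probes of 34792 gene names were kept. The probe with the highest mean stood for a gene. A model with terms for the groups and, within CMPs, source state and chamber was fitted to all genes and all 7 arrays with limma 3.58.1 (R 4.3.3, eBayes with a trend). Tests took in genes measured well above background throughout at least 1 of the sides compared. Where no array of a side was well above background, a lower bound is given: the bright group's mean against, per array of the dim group, the higher of the probe's own signal and the lowest signal among probes well above background. All 7 arrays came from 1 slide and 1 scan, and their number limits the precision. The procedure was tested on simulated data.

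The 9 genes and the gene lists were chosen with earlier results of these data known. The 9 are all named; of the wider list, the 3 largest called differences in each direction are named, except some that are not reported here. Lung, liver, skeletal muscle and cartilage markers and Aldh1a7 were added after values were seen. The genes from which limma's prior spread was estimated were also settled after several choices (3 sets of genes, and before that ways of averaging spots and of defining well above background) had been compared with adjusted p-values of the 9 genes in view. The choice kept, all genes, is the wording of the design written first, and it is the choice under which Dhrs3 (postmortem against living) and Aldh1a2 (adult against fetal heart) are called. Alternatives were the background correction, normalization, filter, probe choice, variance model, covariates, the deposited table and leaving out each array.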

Additional observations from a re-analysis of the deposited data

Results flagged for a closer look

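Cyp26b1 was at 4.24 on the postmortem atrial array, apart from the other 3 CMP arrays: its gap to the nearest of them was 0.83 of the range of the 4, just past Dixon's critical value. Chance gives such a gap in about 1 in 20 groups. The 8 genes well above background on all CMP arrays were searched, so a pass somewhere among them is likelier than that. That array also differed most widely from the other CMPs over all genes, and the part of this in the value was not tested.

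For 3 genes limma's interaction term between source state and chamber passed the threshold in CMPs. The dependence was -2.48 for Cyp26b1, -1.97 for Aldh1a2 and 4.29 for Aldh1a3, each from 1 array per chamber and source state. The spread in that fit comes from the fetal pair of 2 genotypes, one of which carries markers of other organs, and not from CMPs, so a difference between chambers larger than the spread among CMPs is not shown.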

How the results depend on the processing

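Counts of the 9 genes called changed by over 1.5 times as follows. With quantile normalization 3 were called for CMPs against fetal heart, 2 for CMPs against adult heart, 2 for adult against fetal heart, 0 between postmortem and living CMPs, and 0 for the dependence on chamber. Calls over all genes then went from 9942 to 8343 for CMPs against fetal heart and from 10274 to 8934 for CMPs against adult heart. They went from 8168 to 6387 for adult against fetal heart and from 431 to 0 for the dependence on chamber. Between postmortem and living CMPs the count, 1 in the fit reported, was 4 with normexp and 4 in the fit of the CMP arrays alone. With each probe as its own feature it was 2, where a gene counted if any of its probes passed and 442 of 26187 probes did. It was 0 with no trend, with no chamber term and with either other choice of genes for limma's prior, both chosen after seeing the data. Between chambers it was 2 with normexp and 2 in the CMP arrays alone, where the 69 calls over all 18912 genes became 1048 and 1592. For the dependence on chamber it was 0 with no trend, where the 431 calls over all 19013 genes became 30. Over all genes, the 81 postmortem calls became 20 with the other priors, 3 with no chamber term, 0 with quantile normalization or no trend, 1271 with normexp and 2075 in the CMP arrays alone. Leaving out 1 array gave 7 to 8 genes for CMPs against fetal heart, 5 to 6 for CMPs against adult heart, 5 to 6 for adult against fetal heart, 1 to 4 between postmortem and living CMPs and 0 to 3 between chambers; for the dependence on chamber only the fit without adult heart could be made (3). Aldh1a3 ran from -1.87 (without the living ventricular array) to 2.42 between postmortem and living CMPs when 1 array was left out. The causes were not tested. In a fit that left out 1 CMP array the spread came from the fetal pair alone, and without a fetal array from CMPs alone. The deposited table, the mean of all probes, both other filters and the robust prior kept every count within 1.5 times. No paired analysis was possible because the replicate numbers only follow accession order; chamber is a term of the fit. A block for slide or scan was not run, as there was 1 of each.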
